A study of Mus musculus with 12 samples.

Results

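Siglecs are cell-surface receptors of the immunoglobulin family that bind sialic acids, the acidic sugars that cap many glycoproteins and glycolipids. The 6 Siglec genes described here, Siglec1, Siglece, Siglech, Siglecg, Cd33 and Cd22, were taken from the 52636 mouse genes in the count table by matching Ensembl identifiers to gene symbols in the GENCODE M21 annotation. They were selected on their read counts in these same 12 libraries, with earlier results known, so their levels and differences are given as a description, with standard errors and without p-values. RNA was sequenced from cultured microglia, the macrophages that reside in the brain, taken from wild-type (WT) C57BL/6 mice. Brains of pups 1 to 2 days old were grown as mixed cultures, from which the microglia were shaken off and plated at 50000 per well with 2.5 ng of CSF1, the growth factor on which microglia depend. They then received 5 µg of full-length neurofilament light chain (FL-NfL), 5 µg of its coiled-coil part (CC-NfL) or the vehicle control (Vehicle) for 24 h. NfL is a structural protein of axons. Each group had 4 libraries, and each of the 4 labelled batches held 1 library of each group. The labels do not say whether a batch was a separate culture or litter, so the spread between libraries, and every p-value, may be partly technical.

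Many Siglecs carry an inhibitory tyrosine motif in the cytoplasmic tail that recruits the phosphatases SHP-1 (Ptpn6) and SHP-2 (Ptpn11) and dampens activating receptors of the same cell. Others lack the motif and either act in adhesion or pair with the activating adaptor DAP12 (Tyrobp). Microglia are exposed to the sialic acids of neurons and glia, and Siglec signals are known to restrain their phagocytosis and cytokine release. Among the genes here, Siglec1 (sialoadhesin, CD169) is a long macrophage adhesion receptor without the inhibitory motif, Siglece is the main inhibitory Siglec of mouse myeloid cells, Cd33 is a myeloid Siglec, Cd22 and Siglecg are inhibitory receptors best known from B cells, and Siglech pairs with DAP12 and is widely used as a marker of microglia and plasmacytoid dendritic cells.

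The libraries held 20162427 to 31048044 counted reads. Levels are CPM, the read counts divided by the total of the library after scaling with TMM factors. All 10 microglia markers examined were detected. Their summed level was 6834 to 7065 CPM with FL-NfL, 7759 to 8396 with CC-NfL and 7732 to 9078 with Vehicle, so every FL-NfL library lay below every Vehicle library. Of the 10, 4 fell (Cx3cr1, Csf1r and Gpr34 among them) and 1 rose (Aif1) with FL-NfL against Vehicle in edgeR's quasi-likelihood test with Benjamini-Hochberg adjustment over 14687 genes. A fit that also blocked on replicate number had 6 of the 10 lower and 3 higher, where 22.4% of all tested genes were called lower and 21.4% higher. In the comparison without that block 3656 genes changed, 24.9% of those tested, 2062 higher and 1594 lower. With upper-quartile scaling the split was 1691 higher and 2003 lower. B-cell markers summed to 1.89 to 3.77 CPM with FL-NfL, 2.76 to 4.26 with CC-NfL and 2.64 to 3.49 with Vehicle, with Ighd and Blk at 0 in every library. Monocyte and neutrophil markers summed to 101 to 127 CPM with FL-NfL, 103 to 130 with CC-NfL and 96.6 to 139 with Vehicle, with 9 of 11 under 1 CPM on average and S100a9 and Retnlg at 0. Markers of border-associated macrophages, a brain cell type that also carries Siglec1, summed to 3258 to 3569.7 CPM with FL-NfL, 3463 to 4727 with CC-NfL and 3703 to 5592 with Vehicle, and of the 9 tested 3 fell (Mrc1, F13a1 and Stab1) and none rose with FL-NfL against Vehicle (4 fell and 2 rose with that block). In bulk RNA, fewer cells of a type and less RNA per cell cannot be told apart.

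The family was dominated by Siglec1. Siglec1 (ENSMUSG00000027322, GRCm38 chromosome 2, 131069220 to 131086765, minus strand) had the highest level per kilobase of exon of the 6 genes in every library. It stood at 1522, 2373, 2313 and 2143 CPM in FL-NfL libraries 1 to 4, at 728, 2349, 1555 and 1653 CPM in CC-NfL libraries and at 526, 827, 1099 and 520.5 CPM in Vehicle libraries. Every FL-NfL library was above every Vehicle library, whereas the CC-NfL libraries overlapped both other groups. The means were 2088 ± 389.6 CPM with FL-NfL, 1571 ± 664 with CC-NfL and 743 ± 277 with Vehicle (SD, n = 4 each). The log2 fold change of FL-NfL over Vehicle was 1.49 ± 0.33 (SE), a 2.81-fold difference, with log2 differences of 1.07 to 2.04 within the 4 batches. CC-NfL over Vehicle was 1.08 ± 0.33, higher in 4 of 4 batches but by only 0.47 and 0.50 in batches 1 and 3, against 1.51 and 1.67 in batches 2 and 4. FL-NfL over CC-NfL was 0.41 ± 0.32, higher in 4 of 4 batches, by 0.014 in batch 2 to 1.06 in batch 1. Blocked on replicate number, the differences were 1.52 ± 0.20 for FL-NfL over Vehicle, 1.04 ± 0.20 for CC-NfL over Vehicle and 0.48 ± 0.19 for FL-NfL over CC-NfL. The means stood in the order FL-NfL, CC-NfL, Vehicle.

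Siglece had the largest relative difference of the 4 Siglecs that passed the low-count filter. Siglece (ENSMUSG00000030474, chromosome 7, 43651070 to 43660161, minus strand) stood at 161, 189.8, 134 and 164 CPM in FL-NfL libraries 1 to 4, at 13.7, 58.0, 39.2 and 53.5 CPM in CC-NfL libraries and at 18.6, 5.24, 7.19 and 5.84 CPM in Vehicle libraries. The FL-NfL libraries were above all other libraries without overlap. The CC-NfL and Vehicle libraries overlapped only through batch 1, where the CC-NfL library was the lowest of its group and the Vehicle library the highest of its own. The means were 162 ± 22.7 CPM with FL-NfL, 41.1 ± 19.95 with CC-NfL and 9.21 ± 6.30 with Vehicle (SD, n = 4 each). FL-NfL over Vehicle was 4.14 ± 0.49 on the log2 scale, or 17.6-fold, with ratios of 8.65, 35.7, 18.5 and 27.7 in batches 1 to 4. CC-NfL over Vehicle was 2.16 ± 0.46, or 4.47-fold, with ratios of 0.74 in batch 1 and 10.9, 5.41 and 9.05 in batches 2 to 4. FL-NfL over CC-NfL was 1.98 ± 0.44, or 3.94-fold, and FL-NfL was the higher in every batch, by 11.7-fold in batch 1 and by 3.27-, 3.42- and 3.06-fold in batches 2 to 4. With batch 1 left out, the log2 differences were 4.74 ± 0.21 for FL-NfL over Vehicle, 3.04 ± 0.20 for CC-NfL over Vehicle and 1.69 ± 0.18 for FL-NfL over CC-NfL, and the order FL-NfL, CC-NfL, Vehicle held in each of the other batches.

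**Figure D1:**
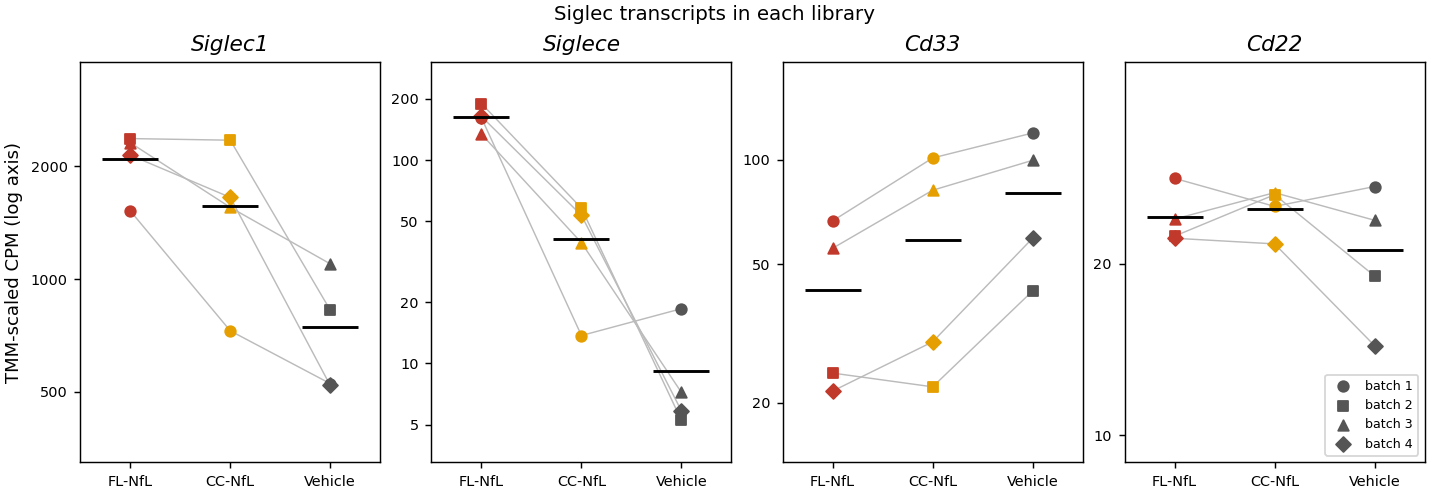
TMM-scaled CPM on log axes for the 4 Siglecs past the low-count filter in the FL-NfL, CC-NfL and Vehicle libraries. Each marker is 1 library, its shape gives the batch, grey lines join the libraries of a batch and black bars are group means. Siglec1 and Siglece are highest with FL-NfL, at means of 2088 and 162 CPM, Cd33 is highest with Vehicle at 80.1 CPM, and the Cd22 groups overlap.

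The mean levels of Cd33 lay in the opposite order. Cd33 (ENSMUSG00000004609, chromosome 7, 43524216 to 43544428, minus strand), whose mouse form lacks part of the inhibitory tail of human CD33, stood at 66.7, 24.3, 55.6 and 21.6 CPM in FL-NfL libraries 1 to 4, at 101, 22.2, 81.7 and 29.9 CPM in CC-NfL libraries and at 119, 41.9, 99.7 and 59.5 CPM in Vehicle libraries. All groups overlapped, and the libraries of batches 1 and 3 were higher than those of batches 2 and 4 under every treatment. Within batches, FL-NfL was lower than Vehicle in 4 of 4, by log2 differences of −0.84, −0.78, −0.84 and −1.46, and CC-NfL was lower than Vehicle in 4 of 4, by −0.24, −0.92, −0.29 and −0.99. FL-NfL was lower than CC-NfL in only 3 of 4, with log2 differences of −0.60, 0.13, −0.55 and −0.47 in batches 1 to 4. The means were 42.1 ± 22.5 CPM with FL-NfL, 58.8 ± 38.7 with CC-NfL and 80.1 ± 35.7 with Vehicle (SD, n = 4 each). The log2 fold change was −0.93 ± 0.53 for FL-NfL over Vehicle, −0.45 ± 0.52 for CC-NfL over Vehicle and −0.48 ± 0.52 for FL-NfL over CC-NfL. In a fit with the replicate number as a block these differences were −0.98 ± 0.14, −0.60 ± 0.14 and −0.39 ± 0.14. In the fit without that block, leaving out CC-NfL replicate 1 alone gave −0.86 for CC-NfL over Vehicle and −0.061 for FL-NfL over CC-NfL. With all of batch 1 left out, also without the block, these were −0.60 ± 0.55 and −0.39 ± 0.55. Batch accounted for 73.6% of the variance of log2 CPM of Cd33 over the 12 libraries and treatment for 22.1%, whereas for Siglece batch accounted for 0.191% and treatment for 88.4%. The median over all tested genes was 34.2% for batch and 30.1% for treatment. The batch share counts only shifts common to the 3 groups of a batch. In batch 1, Siglece was low with CC-NfL and high with Vehicle, and such opposite shifts fall in its remaining 11.5%.

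Siglece and Cd33 both lie in the Siglec cluster of chromosome 7, on the same strand and 106.641 kb apart, with 4 protein-coding genes between them. Siglecg lies 105.857 kb beyond Cd33, on the plus strand. The 250 bases upstream of the RefSeq starts of Siglece and Cd33 are shown because their mean levels ran in opposite order across the groups. The windows are from RefSeq on GRCm38.p6, 5′ to 3′ on the minus strand, at chr7:43660162-43660411 for Siglece and chr7:43533172-43533421 for Cd33, with capitals for the single motif match found among 6 motifs searched on both strands.
Siglece: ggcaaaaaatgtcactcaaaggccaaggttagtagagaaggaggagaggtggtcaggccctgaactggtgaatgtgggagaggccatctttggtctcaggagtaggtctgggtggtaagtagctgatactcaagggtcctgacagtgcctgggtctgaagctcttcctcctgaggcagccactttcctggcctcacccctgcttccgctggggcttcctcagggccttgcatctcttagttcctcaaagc
Cd33: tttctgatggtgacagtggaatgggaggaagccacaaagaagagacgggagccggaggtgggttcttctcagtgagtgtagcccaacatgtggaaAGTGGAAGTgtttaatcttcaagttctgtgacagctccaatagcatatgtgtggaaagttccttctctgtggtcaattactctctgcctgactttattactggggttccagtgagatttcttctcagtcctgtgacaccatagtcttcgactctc
The motifs searched were AGNGGAAGT (PU.1-type), GAAA, any 2 bases and GAAA (interferon response element), TTCNNNGAA (STAT), GGG, any 3 bases and TTCC (NF-kB-type), TGANTCA (AP-1) and TTGCNNAA (C/EBP-type), where N is any base. The match in Cd33 is the PU.1-type motif, 155 to 147 bases upstream of a start at 43533171, which lies inside the annotated span of the gene because a longer transcript starts farther upstream. The Siglece window held no match. Of 32851 such windows in the RefSeq table, 1.86% hold AGNGGAAGT, 2.98% the interferon response element, 7.02% TTCNNNGAA, 4.65% the NF-kB-type motif, 6.75% TGANTCA and 9.56% TTGCNNAA. A match is a run of letters, not a shown binding site. Windows were found for 5 of the 6 genes. The longest run shared by any 2 of the Siglec windows was 16 bases, AAAGTGGAAGTGTTTA, between Cd33 and Siglecf, an eosinophil Siglec of the same cluster, and it contains the motif.

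Cd22 (ENSMUSG00000030577, chromosome 7, 30865402 to 30880342, minus strand) was measured at a nearly even level. It stood at 28.2, 22.3, 23.9 and 22.2 CPM in FL-NfL libraries 1 to 4, at 25.2, 26.4, 26.6 and 21.7 CPM in CC-NfL libraries and at 27.3, 19.0, 23.8 and 14.4 CPM in Vehicle libraries, and all groups overlapped. The means were 24.2 ± 2.82 CPM with FL-NfL, 25.0 ± 2.30 with CC-NfL and 21.1 ± 5.65 with Vehicle (SD, n = 4 each). The log2 fold change was 0.19 ± 0.17 for FL-NfL over Vehicle (95% interval −0.18 to 0.57), 0.24 ± 0.17 for CC-NfL over Vehicle (−0.14 to 0.62) and −0.047 ± 0.17 for FL-NfL over CC-NfL (−0.43 to 0.33). Blocked on replicate number, these were 0.22 ± 0.11 for FL-NfL over Vehicle, 0.27 ± 0.11 for CC-NfL over Vehicle and −0.053 ± 0.11 for FL-NfL over CC-NfL. These levels were found in libraries where 9 of 10 B-cell markers were under 1 CPM on average. An antisense gene, Gm29439, overlaps Cd22, and 7.84% of the 50-base windows of Cd22 transcripts also occur in transcripts of other genes, most often of Gm29439, so part of its count is uncertain. The same share was 1.33% for Siglec1, 0.458% for Cd33 and 0 for Siglece, against 25.1% for Gapdh, which has many pseudogenes.

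Siglech and Siglecg were at the limit of detection. Siglech (ENSMUSG00000051504, chromosome 7, 55768178 to 55778925, plus strand) had 0 to 3 counts per library, with sums of 1 count over the 4 FL-NfL libraries, 3 over the CC-NfL libraries and 5 over the Vehicle libraries. Siglecg (ENSMUSG00000030468, chromosome 7, 43408204 to 43418358, plus strand) also had 0 to 3 counts per library, with sums of 1 with FL-NfL, 5 with CC-NfL and 0 with Vehicle. A sum of 0 over the 92891963 counts of the Vehicle libraries allows a level of up to 0.0323 CPM, for which 3 counts were taken as the floor, counting error only. No difference between groups was detectable at this depth for either gene. Siglech is normally abundant in microglia of the brain, so its very low counts here went against the label of the cultures. The counter and its annotation are not given, so a low transcript level and a loss of reads in counting cannot be told apart. The share of 50-base windows that also occur in transcripts of other genes was 0.389% for Siglech and 4.64% for Siglecg. The microglia markers P2ry12 and Tmem119 averaged 37.6 and 19.2 CPM with FL-NfL and 41.8 and 11.6 CPM with Vehicle. Tyrobp, the partner adaptor of Siglech, averaged 1023 CPM with FL-NfL, 1162 with CC-NfL and 1111 with Vehicle.

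Over the 4 Siglecs that passed the filter, 2 (Siglec1 and Siglece) had every FL-NfL library above every Vehicle library and none had every library below. Among all 14687 tested genes, 14.5% were above and 11.4% below in this way, and 25.8% in either. Within batches, Siglec1, Siglece and Cd22 were higher with FL-NfL than with Vehicle in 4 of 4, as were 26.5% of all genes, and Cd33 was lower in 4 of 4, as were 28.1%. In CC-NfL against Vehicle, the groups overlapped for all 4 Siglecs, where 1.42% of all genes were above and 1.31% below without overlap, 2.72% in all. Siglec1 was higher in 4 of 4 batches there, as were 11% of all genes, and Cd33 was lower in 4 of 4, as were 12.2%. In FL-NfL against CC-NfL, 1 of the 4, Siglece, was above without overlap, where 7.46% of all genes were above and 5.02% below, 12.5% in all. Siglec1 and Siglece were higher with FL-NfL than with CC-NfL in 4 of 4 batches, as were 21.1% of all genes, and none of the 4 was lower in all batches, as were 22.3%. Nothing is read from these counts, since the same values were known when the genes were chosen. The 2 comparisons against Vehicle share the same Vehicle libraries, so their differences are set side by side and not related to each other.

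**Figure D2:**
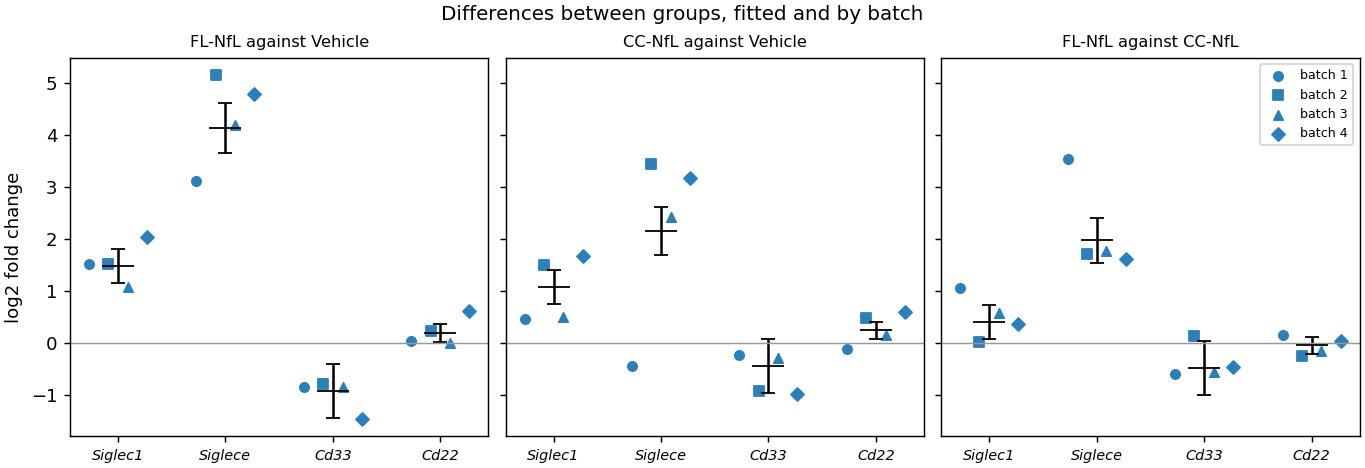
Log2 fold change for the 4 Siglecs in each comparison, where black crosses are the fitted difference with its SE and blue markers are the differences within batches 1 to 4. Siglece runs from 3.11 to 5.16 across batches with FL-NfL against Vehicle and from −0.44 to 3.45 with CC-NfL against Vehicle, and all 4 batch values of Cd33 are below 0 in both comparisons against Vehicle.

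Because the exonic length of these genes ranges from 1849 bases for Siglece to 7771 for Cd33, levels were compared between genes only as CPM per kilobase of exon. That length joins the exons of all annotated transcripts of a gene, and which transcripts were present was not tested. If shorter transcripts were present, the levels per kilobase given here are too low, so ratios and shares between genes depend on this choice. On that scale Siglec1 averaged 292 with FL-NfL, 220.0 with CC-NfL and 104 with Vehicle. Siglece averaged 87.8 CPM per kilobase with FL-NfL, 22.2 with CC-NfL and 4.98 with Vehicle. Cd33 averaged 5.41 with FL-NfL, 7.56 with CC-NfL and 10.3 with Vehicle, and Cd22 averaged 4.79 with FL-NfL, 4.95 with CC-NfL and 4.19 with Vehicle. Siglece was thus the second Siglec by level in every FL-NfL library, whereas in every Vehicle library Cd33 was above Siglece. The ratio of Siglece to Cd33 per kilobase was 10.1 to 32.8 in FL-NfL libraries, 0.569 to 11.0 in CC-NfL libraries and 0.303 to 0.654 in Vehicle libraries. In CC-NfL it was below 1 in library 1 alone. Of the summed level of the 6 genes, Siglece held 17.8% to 27.7% in FL-NfL libraries, 5.82% to 10.8% in CC-NfL libraries and 2.22% to 9.61% in Vehicle libraries, so that FL-NfL stood apart from both other groups. Siglec1 held 74.5% on average with FL-NfL, 85.2% with CC-NfL and 83.3% with Vehicle. The summed level was 315 to 442 CPM per kilobase with FL-NfL, 127 to 368 with CC-NfL and 86.5 to 175 with Vehicle.

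**Figure D3:**
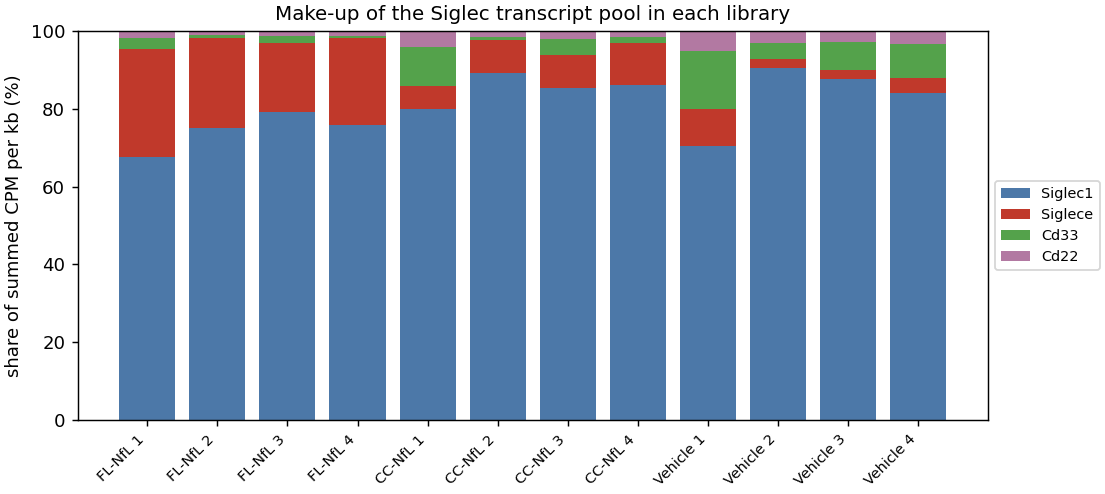
Share of each Siglec in the summed CPM per kilobase of the 6 genes, in percent, for each of the 12 libraries (Siglech and Siglecg are too low to be seen). Siglece takes 17.8% to 27.7% in the FL-NfL libraries and at most 10.8% in the others, and Cd33 takes its largest share, 14.7%, in Vehicle library 1.

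The 3 remaining mouse Siglec genes were read for comparison. Mag (ENSMUSG00000036634, chromosome 7, 30899176 to 30914873, minus strand), the myelin-associated glycoprotein that lies 18.833 kb from Cd22, stood at 9.47, 8.84, 8.20 and 8.44 CPM in FL-NfL libraries 1 to 4, at 5.57, 6.63, 6.87 and 7.26 CPM in CC-NfL libraries and at 7.64, 3.895, 5.82 and 4.37 CPM in Vehicle libraries. It rose with FL-NfL against Vehicle by 0.69 ± 0.19 on the log2 scale, with an adjusted p of 0.0201 in edgeR's quasi-likelihood test, and was higher in 4 of 4 batches. Without Vehicle replicate 4 the log2 fold change was 0.60 and the adjusted p was 0.0568. CC-NfL over Vehicle was 0.28, with an adjusted p of 0.79 in the same test. The oligodendrocyte markers Mog, Mobp and Sox10 were under 1 CPM on average, but others were not. Mbp, Cnp and Olig1 averaged 74.3, 149 and 6.84 CPM with FL-NfL and 104, 110 and 11.4 CPM with Vehicle. The summed level of the 10 oligodendrocyte markers, Mag among them, was 233 to 257 CPM with FL-NfL, 224 to 283 with CC-NfL and 226 to 264 with Vehicle. Of the 8 tested, only Mag was called with FL-NfL against Vehicle, and the median log2 fold change was −0.58. With the replicate block 2 rose and 4 fell, where 21.4% of all tested genes rose and 22.4% fell. Siglecf was at 0.402 to 1.19 CPM with FL-NfL, 0.652 to 3.93 with CC-NfL and 0.321 to 2.34 with Vehicle, and the log2 fold change of FL-NfL over Vehicle was −0.49 ± 0.72. Siglec15, a DAP12-coupled receptor of osteoclasts, had sums of 1 count with FL-NfL, 5 with CC-NfL and 2 with Vehicle.

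A further 7 lists were tested with the edgeR quasi-likelihood test. They held genes of Siglec signalling, sialic acid metabolism, Siglec ligands, other inhibitory receptors and the type I interferon response. The lists were chosen with earlier results of these data known. Of the 84 tested genes outside the 6 Siglecs, with Mag and Siglecf counted, 32 changed with FL-NfL against Vehicle, 22 higher and 10 lower, where 14% of all tested genes were higher and 10.9% lower. The median log2 fold change of all tested genes was −0.021. With the replicate number as a block, 62 of the 84 were called, where 43.8% of all tested genes were called in that fit. Leaving out single libraries moved the count by more than 1.5 times in 5 cases, to 14 (Vehicle replicate 4), 16 (FL-NfL replicate 2), 19 (FL-NfL replicate 4 or Vehicle replicate 2) or 21 (FL-NfL replicate 3). The fits that leave out a library had no replicate block, although the batches pair the samples. All of the 32 kept their call in the block fit with all libraries. The 22 genes of the type I interferon list gave 6 of the 32 calls, and 19 of the 62 with the block. Of the 32, 12 kept their call whichever library was left out. Among them, Ptpn6, Ptpn11, Nans, Clec4a2, Cd244a and Irf7 rose and St3gal2, St6gal1, St8sia4, Slc17a5 and Cd300a fell.

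Siglec signalling genes moved in 1 direction where they changed. Of the 12 adaptors, kinases and phosphatases, 6 rose with FL-NfL against Vehicle and none fell, with a median log2 fold change of 0.39. Among all tested genes 14% rose and 10.9% fell in that comparison. With the replicate block 8 of the 12 rose and none fell, where 21.4% of all tested genes rose and 22.4% fell. Ptpn6, which encodes SHP-1, averaged 625 CPM with FL-NfL, 553 with CC-NfL and 427 with Vehicle, and rose by 0.55 ± 0.13 (adjusted p = 0.0092, edgeR). Ptpn11, which encodes SHP-2, averaged 179.97 CPM with FL-NfL, 156 with CC-NfL and 153 with Vehicle, and rose by 0.23 ± 0.05 (adjusted p = 0.0080, edgeR). Syk, Lyn and Socs3 also rose, and without FL-NfL replicate 2 or Vehicle replicate 4 all of these 3 lost their call, which left 3 of 12. Syk also lost its call without Vehicle replicate 2, and Socs3 without that library or FL-NfL replicate 1 or 3. Tyrobp, the adaptor of Siglech, had a log2 fold change of −0.12 ± 0.07 (adjusted p = 0.22, edgeR).

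Among sialyltransferases, the enzymes that add sialic acid to glycans, more genes fell than rose. Of 20 genes 15 were tested, and 4 fell and 1 rose with FL-NfL against Vehicle, with a median log2 fold change of −0.57. Among all tested genes 10.9% fell and 14% rose. St8sia4, which makes polysialic acid, was at 51.8 to 85.3 CPM in FL-NfL libraries, 115 to 220.0 in CC-NfL libraries and 179 to 206 in Vehicle libraries. Its FL-NfL libraries were below all others, and it fell by 1.53 on the log2 scale (SE 0.21, adjusted p = 0.0008, edgeR). St6gal1, which makes the sialic acid linkage that CD22 binds, was at 79.9 to 122 CPM in FL-NfL libraries, 134 to 231 in CC-NfL libraries and 203 to 245 in Vehicle libraries, and fell by 1.19 (SE 0.18, adjusted p = 0.0014, edgeR). St3gal2 fell by 0.60 (SE 0.11, adjusted p = 0.0030, edgeR). The other calls were St3gal4, at −0.42, and St3gal5, the synthase of the ganglioside GM3, at 0.45. St3gal4 lost its call without FL-NfL replicate 2 or 4 or Vehicle replicate 3 or 4, and St3gal5 without FL-NfL replicate 2 or 4, without Vehicle replicate 1, 2 or 3, with batch 1 left out and under upper-quartile scaling. With the replicate block 9 fell and 4 rose, where 22.4% of all tested genes fell and 21.4% rose. Leaving out FL-NfL replicate 2 or 4 gave 3 calls, and leaving out FL-NfL replicate 1, or all of batch 1, gave 8. Markers of neurons and astrocytes, brain cells other than microglia, also had negative median differences, with summed levels that overlapped between the groups. The 8 neuron markers summed to 8.83 to 28.5 CPM with FL-NfL, 14.5 to 44.1 with CC-NfL and 17.8 to 59.2 with Vehicle, and of 7 tested 2 fell (Rbfox3 and Gad1), or 7 with the block, with a median log2 fold change of −1.21 for FL-NfL over Vehicle. The 8 astrocyte markers summed to 23.8 to 37.4 CPM with FL-NfL, 24.1 to 51.6 with CC-NfL and 25.99 to 56.5 with Vehicle, and 1 of 8 fell (Sox9), or 6 with the block, with a median of −0.59. None of the markers on these 2 lists was at 0 in every library, and their part in the levels of sialyltransferases was not tested.

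Genes of sialic acid synthesis and release were called in both directions. Of the 7 tested synthesis genes 1 rose and 1 fell with FL-NfL against Vehicle, and of the 5 tested release genes 1 rose and 1 fell, where 24.9% of all tested genes were called. Nans, the sialic acid synthase, averaged 63.6 CPM with FL-NfL, 54.5 with CC-NfL and 50.0 with Vehicle and rose by 0.35 ± 0.08 (adjusted p = 0.0073, edgeR). Npl, the lyase that breaks sialic acid down, had a log2 fold change of −0.22 ± 0.07 (adjusted p = 0.0428, edgeR), and its call was lost without a filter on low counts, with only the 2 groups compared, and on leaving out any of 10 of the 12 libraries, all but CC-NfL replicate 1 and Vehicle replicate 1, with log2 fold changes of −0.24 to −0.18. Among the release genes, Slc17a5, the lysosomal sialic acid exporter, was at 73.5 to 91.1 CPM in FL-NfL libraries, 89.6 to 131 in CC-NfL libraries and 120 to 146 in Vehicle libraries and fell by 0.66 (SE 0.12, adjusted p = 0.0028, edgeR). Neu1, the lysosomal sialidase, was higher by 0.27 ± 0.09 (adjusted p = 0.0413, edgeR), a call that was lost under upper-quartile scaling, without a filter on low counts, with only the 2 groups compared, and on leaving out FL-NfL replicate 2, 3 or 4 or Vehicle replicate 2 or 4, with log2 fold changes of 0.22 to 0.29.

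**Figure D4:**
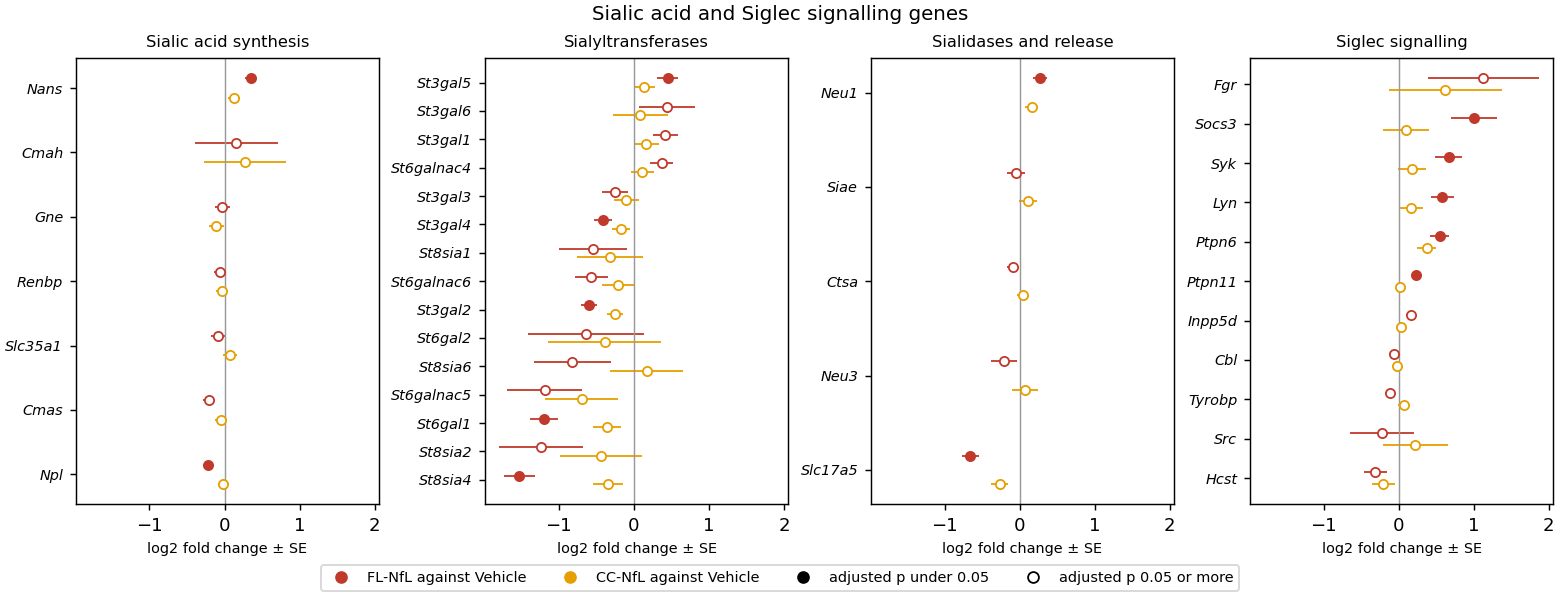
Log2 fold change with SE for tested genes of sialic acid synthesis, sialyltransferases, sialidases and release, and Siglec signalling (11 of the 12 shown), with FL-NfL against Vehicle in red and CC-NfL against Vehicle in orange. Filled points have an adjusted p under 0.05 in edgeR's quasi-likelihood test. St8sia4 is lowest at −1.53, and no orange point is filled.

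Glycoproteins that carry Siglec ligands were mixed. Of 5 tested, Lgals3bp and Ptprc (CD45) rose and Cd24a, which encodes the ligand of Siglec-G, fell with FL-NfL against Vehicle. Among all tested genes 14% rose and 10.9% fell. Lgals3bp averaged 2379.6 CPM with FL-NfL, 2096 with CC-NfL and 1356 with Vehicle and rose by 0.81 ± 0.22 (adjusted p = 0.0179, edgeR), but was not called without FL-NfL replicate 2 or Vehicle replicate 4 (0.75 and 0.69, adjusted p = 0.0504 to 0.0513). None of the 3 was called in either of those fits. Cd24a, at −0.99 ± 0.30 (adjusted p = 0.0302, edgeR), also lost its call without FL-NfL replicate 3 or 4 or Vehicle replicate 1 or 2, and Ptprc, at 0.48 ± 0.16 (adjusted p = 0.0472, edgeR), without those or CC-NfL replicate 2 or 4 and with only the 2 groups compared.

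Of 16 tested inhibitory receptors of other families, 4 rose and 3 fell with FL-NfL against Vehicle, where 14% of all genes rose and 10.9% fell. With the replicate block 9 rose and 4 fell, where 21.4% of all tested genes rose and 22.4% fell. Clec4a2, an inhibitory C-type lectin, was at 154 to 173 CPM in FL-NfL libraries, 46.5 to 96.2 in CC-NfL libraries and 24.9 to 55.8 in Vehicle libraries. It rose by 2.11 ± 0.26 (adjusted p = 0.0006, edgeR), though reads of the closely related Clec4a genes may be shared between them. Cd244a, a receptor of the SLAM family, averaged 8.07 CPM with FL-NfL, 4.11 with CC-NfL and 3.31 with Vehicle and rose by 1.28 ± 0.23 (adjusted p = 0.0027, edgeR). Cd300a, a receptor for phosphatidylserine, was at 34.6 to 49.3 CPM in FL-NfL libraries, 69.1 to 84.9 in CC-NfL libraries and 94.5 to 97.7 in Vehicle libraries, and fell by 1.14 (SE 0.10, adjusted p = 0.0003, edgeR). Leaving out FL-NfL replicate 4 or Vehicle replicate 2 or 4 left 4 of the 7 calls.

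Siglec1 is known as an interferon-inducible gene, and 22 genes of the type I interferon response were read beside it. With FL-NfL against Vehicle 6 rose and none fell, where 14% of all tested genes rose and 10.9% fell. The median log2 fold change of the 22 was 0.62. Irf7, the transcription factor that amplifies the response, was at 846 to 2227 CPM in FL-NfL libraries, 351 to 1754 in CC-NfL libraries and 247 to 795 in Vehicle libraries. It rose by 1.96 ± 0.50 (adjusted p = 0.0149, edgeR). Bst2, or tetherin, was higher by 1.07 ± 0.28 (adjusted p = 0.0180, edgeR) and lost its call without Vehicle replicate 1 or 4, and Oasl1 was higher by 1.79 ± 0.54 (adjusted p = 0.0313, edgeR) and lost it without FL-NfL replicate 2, 3 or 4 or Vehicle replicate 1, 2 or 4. With the replicate block 19 of the 22 rose, where 21.4% of all tested genes rose in that fit. DESeq2 called 11 of the 22, where it called 29.2% of all genes to which it gave an adjusted p. Leaving out a library gave between 1 call, Irf7, without Vehicle replicate 1 or 4 and 16 calls without Vehicle replicate 3, and moved the count by more than 1.5 times for every library except CC-NfL replicates 2, 3 and 4. The part of this response in the level of Siglec1 was not tested.

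With CC-NfL against Vehicle, none of the 84 list genes was called by edgeR, as for all 14687 genes, of which 0% were called. At an unadjusted p under 0.05 there were 9 of the 84 and 1082 of all genes, and DESeq2 called 1 of the 84, Clec4a2, and 33 of all genes, 0.436% of those with an adjusted p. Without CC-NfL replicate 1, edgeR called 1 of the 84, again Clec4a2, and 26 of all genes. The log2 fold change of CC-NfL over Vehicle was 1.08 for Clec4a2 (adjusted p = 0.62, edgeR), 1.30 for Irf7 (0.66), 0.63 for Lgals3bp (0.65), 0.37 for Ptpn6 (0.65), 0.12 for Nans (0.75), −0.26 for Slc17a5 (0.67) and −0.26 for St3gal2 (0.67).

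With FL-NfL against CC-NfL, 4 of the 84 list genes were called, 1 higher and 3 lower, where 1.38% of all tested genes were called higher and 1.34% lower, 2.72% in all. Cd300a fell by 0.80 (SE 0.10, adjusted p = 0.0061, edgeR), a call kept whichever library was left out. St8sia4 fell by 1.19 (SE 0.20, adjusted p = 0.0158, edgeR), a call lost without FL-NfL replicate 2 or 4, at −1.08 and −1.11. St6gal1 was lower by a log2 fold change of −0.84 ± 0.18 (adjusted p = 0.0386, edgeR), a call lost with batch 1 left out, with only the 2 groups compared and in 6 of the 12 fits that leave out a library (without CC-NfL replicate 1 or 3, FL-NfL replicate 2 or 4, or Vehicle replicate 2 or 4), at −0.83 to −0.66. Cd244a was higher by 0.97 ± 0.22 (adjusted p = 0.0425, edgeR), a call kept on leaving out FL-NfL replicate 1 or Vehicle replicate 3 and lost in the 10 other such fits, at 0.88 to 1.09, and with only the 2 groups compared. With the replicate block 25 of the 84 were called, where 19.1% of all tested genes were called in that fit. DESeq2 called 12 of the 84, where it called 11.8% of all genes to which it gave an adjusted p.

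Genes with the profiles most like those of the 4 detected Siglecs were found by the root mean square distance between log2 CPM profiles over the 12 libraries, each centred on its mean, among 9218 genes that averaged 5 CPM or more. The search was made on the same libraries, so it is a description without a test. The nearest to Siglec1 were Clec4a3, a C-type lectin, at a distance of 0.17, Mlkl, the effector of necroptosis, at 0.19 and H2-T22, a non-classical MHC gene with close relatives, at 0.21, where the median gene was at 0.79. Clec4a3 averaged 225 CPM with FL-NfL, 160 with CC-NfL and 85.6 with Vehicle. The nearest to Siglece were Cd300e, a myeloid receptor of the CD300 family, at 0.59, Slamf9, a receptor of the SLAM family, at 0.66 and Cfb, complement factor B, at 0.66, with a median gene at 1.86. Their log2 fold changes of FL-NfL over Vehicle were 5.22 for Cd300e, 3.96 for Slamf9 and 3.09 for Cfb. Cd300e averaged 21.0 CPM with FL-NfL, 4.09 with CC-NfL and 0.559 with Vehicle, so it passed the cut of 5 CPM only through FL-NfL. Cfb averaged 18.1 CPM with FL-NfL, 6.79 with CC-NfL and 2.11 with Vehicle. The size of these 2 differences rests on low Vehicle levels.

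The nearest to Cd33 were Cnr2, a cannabinoid receptor, at 0.25, Mgst1, a glutathione transferase, at 0.31 and Ptgs1, a cyclooxygenase, at 0.34, with a median gene at 0.88. These shared with Cd33 a higher level in batches 1 and 3 than in batches 2 and 4 in each group, and their log2 fold changes of FL-NfL over Vehicle were −1.10 for Cnr2, −0.62 for Mgst1 and −1.41 for Ptgs1. For Cd22, which varied least, Ptger4, N4bp1 and Ubtd1 lay at 0.11, 0.11 and 0.12, with a median gene at 0.31.

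**Figure D5:**
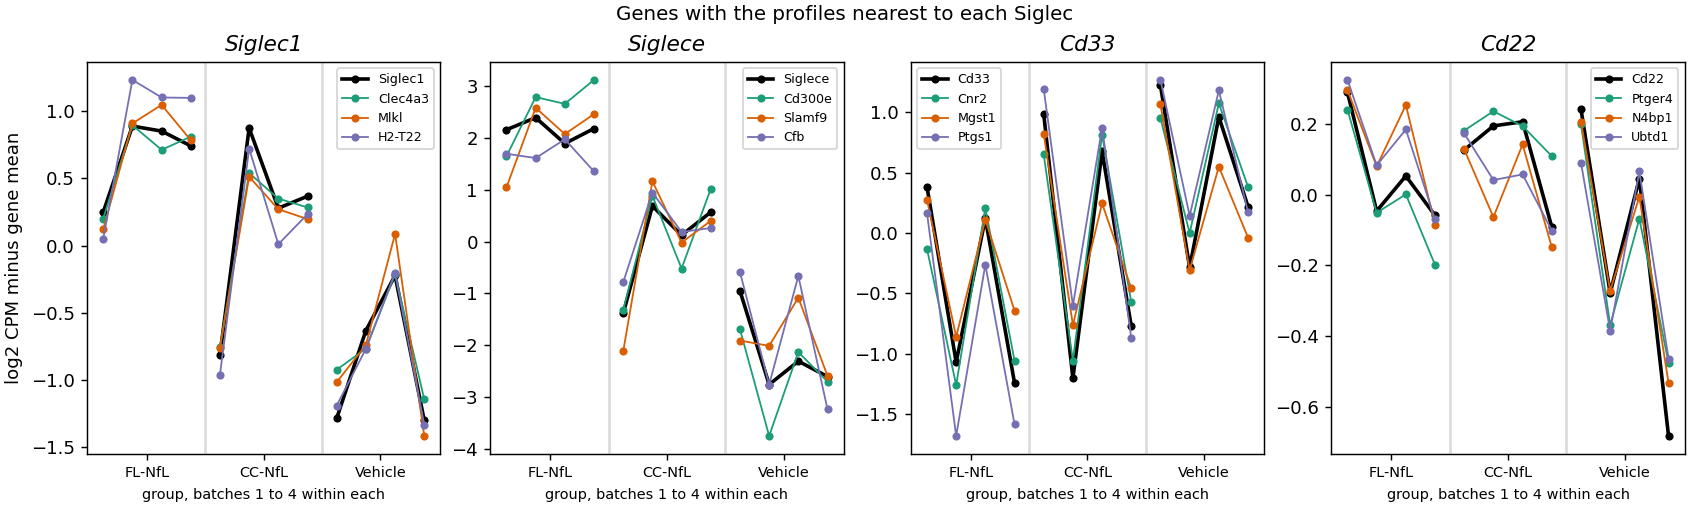
Log2 CPM minus the mean of the gene for each of the 12 libraries, ordered by group and batch, for each Siglec (black) and its 3 nearest genes (colours). In the Siglec1 and Siglece panels the group averages step down across FL-NfL, CC-NfL and Vehicle, though single libraries depart from that order. The Cd33 panel swings with batch inside every group.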

How the data were processed

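The authors deposited 1 table that lists whole-number read counts, not normalized, for Ensembl mouse genes in 12 libraries. Every column was matched to its sample by name (0 columns unmatched). Per the labels' protocols, libraries were made with a stranded mRNA kit and sequenced as single reads of 50 bases. Per the submitters' processing notes, reads were aligned with GSNAP to GRCm38. Not given in the sources used here are the aligner version, the counter, its annotation and its use of strand, so antisense and closely related genes are uncertain.

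From these counts, genes were filtered with filterByExpr (14687 kept, 37949 removed, 99.93% of counts kept) and fitted with edgeR 4.0.16 in R 4.3.3, with TMM scaling, 3 groups, all 12 libraries and 9 residual degrees of freedom. Comparisons used the two-sided quasi-likelihood F test with Benjamini-Hochberg adjustment over all tested genes and a threshold of 0.05. A 95% interval spans the SE multiplied by the t quantile (9 degrees of freedom) on either side of the log2 fold change. The fit was tested on simulated counts.

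The 6 Siglecs, the lists and the markers were chosen with earlier results of these data known. Named genes were the Siglecs, up to 3 called genes with the smallest p per list and comparison against Vehicle (or the smallest p where none was called) and the 3 nearest profiles, and other called list genes are named only where a lost call is described. The labelled batches number the replicates and pair the samples: after removal of group means, 12 of 12 same-number pairs correlated above 0.1 (0.31 to 0.73, other pairs −0.46 to 0.44). Alternatives were the replicate block, DESeq2 1.42.0, other scalings (RLE, upper quartile), other filters on low counts, only the compared groups, leaving out each library and omission of batch 1, an alternative added once the data had been seen. Upstream windows came from a RefSeq table, and transcript windows of 50 bases from GENCODE M21. A few genes of the lists are counted but not reported here.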

Additional observations from a re-analysis of the deposited data

Results flagged for a closer look

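Among 75 groups of 4 libraries examined, 4 held a library far from the other 3, and chance flags about 1 in 20 such groups. All 4 flagged libraries belonged to batch 1. Siglece was at 18.6 CPM in Vehicle library 1 and at 5.24 to 7.19 CPM in the other Vehicle libraries. Siglecf was at 3.93 CPM in CC-NfL library 1 and at 0.652 to 0.715 CPM in the other CC-NfL libraries. St3gal2 was at 45.2 CPM in CC-NfL library 1 and at 33.2 to 35.0 CPM in the others, and Clec4a2 was at 46.5 CPM in CC-NfL library 1 and at 90.8 to 96.2 CPM in the others. Values with batch 1 left out stand beside the Siglece results. For CC-NfL over Vehicle with batch 1 left out, the log2 fold change was 0.0043 ± 0.47 for Siglecf (0.46 ± 0.70 with all batches), −0.37 ± 0.08 for St3gal2 (−0.26 ± 0.11) and 1.33 ± 0.25 for Clec4a2 (1.08 ± 0.26), and none was called by edgeR with or without that batch. For FL-NfL over Vehicle the calls of St3gal2 and Clec4a2 were kept without it, at −0.67 ± 0.08 and 2.17 ± 0.25.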

How the results depend on the processing

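Of the 12 Siglec differences, 11 kept their sign under all 20 alternatives, and FL-NfL over CC-NfL for Cd22 was 0.0028 without FL-NfL replicate 4. Their ranges on leaving out single libraries were 1.36 to 1.74, 0.81 to 1.33 and 0.18 to 0.68 for Siglec1 (FL-NfL over Vehicle, CC-NfL over Vehicle, FL-NfL over CC-NfL), 3.96 to 4.74, 1.94 to 2.76 and 1.70 to 2.21 for Siglece, −1.24 to −0.67, −0.86 to −0.18 and −0.79 to −0.061 for Cd33, and 0.057 to 0.34, 0.10 to 0.39 and −0.12 to 0.0028 for Cd22. With the replicate block, which removes batch differences, 6432 genes were called for FL-NfL against Vehicle (3656 without it), 2 for CC-NfL against Vehicle (0) and 2806 for FL-NfL against CC-NfL (399), and the list genes called were 62 (32), 0 (0) and 25 (4). DESeq2 called 33 genes for CC-NfL against Vehicle and 1425 for FL-NfL against CC-NfL, with 1 and 12 list genes. With batch 1 left out, which removes 3 libraries, 12 genes were called for CC-NfL against Vehicle and 216 for FL-NfL against CC-NfL, and with only the 2 groups compared 168 for FL-NfL against CC-NfL. Leaving out single libraries gave 2384 to 4084 genes for FL-NfL against Vehicle (lowest without FL-NfL replicate 2), 0 to 26 for CC-NfL against Vehicle (highest without CC-NfL replicate 1) and 32 to 601 for FL-NfL against CC-NfL (without FL-NfL replicate 2 and without FL-NfL replicate 1), and 14 to 43, 0 to 1 and 1 to 5 list genes. For single named genes, 1101 of 1197 values kept their sign and their side of the threshold, 67 lost a call and 27 gained one. The other 2, neither called, changed sign for CC-NfL over Vehicle: Ptpn11 was −0.0052 under upper-quartile scaling (0.023 with TMM) and Npl was −0.068 to 0.015 on leaving out single libraries, highest without Vehicle replicate 2 (−0.017 with all libraries). The cause of these shifts was not tested. Depth and the unknown counting method limit what can be said of Siglech and Siglecg.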
